A study of Mus musculus with 20 samples.

Results

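The transcripts of 10 genes that sense double-stranded RNA and cytosolic DNA, or that relay those signals, were examined in mouse knee joints after injection of mesenchymal stromal cells (MSC). The genes were taken by symbol from the deposited normalized count table, in which all 10 were present among 14793 genes. They are Tlr3, Ifih1 and Cgas (sensors), Ticam1, Mavs and Sting1 (adaptors), Tbk1 and Ikbke (kinases), Irf3 (transcription factor) and Enpp1 (an enzyme that degrades cGAMP). The joints came from male C57BL/6Nci mice, described as 12 weeks old. In all of them osteoarthritis was induced by surgery that destabilizes the medial meniscus (DMM). Intra-articular treatment followed in weeks 3 and 5 after surgery in groups of 10 mice, and 5 joints per group were sequenced as biological replicates. Control joints (CTRL) received needle insertion alone. The MSC joints received non-activated adipose-derived cells, the TLR joints received cells activated beforehand with polyinosinic-polycytidylic acid (pIC), a TLR3 agonist, and the STING joints received cells activated with 2′3′cGAMP, the ligand of STING. All injected cells came from a single donor pool of the same mouse strain, so transcripts of donor and host cells cannot be told apart. Joints were taken en bloc with cartilage, synovium, capsule and subchondral bone, and the study's text gives more than 1 time of collection.

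Double-stranded RNA in endosomes is recognized by TLR3, which signals through the adaptor TRIF, encoded by Ticam1, whereas long double-stranded RNA in the cytosol is recognized by MDA5, encoded by Ifih1, which signals through MAVS on mitochondria. Cytosolic DNA activates the enzyme cGAS, which makes the messenger cGAMP, and cGAMP binds STING on the endoplasmic reticulum. These routes meet at the kinases TBK1 and IKKε, which phosphorylate IRF3 so that type I interferon genes are transcribed.

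Depth ranged from 27955496 to 52529973 reads per joint, with group medians of 33230113 (CTRL), 42283681 (MSC), 33141873 (TLR) and 31917015 (STING). The 10 genes were read well above the detection limit, from 105 reads (Tlr3, lowest joint) to 21046 reads (Enpp1, highest joint). The presence of marker reads at this depth does not test the tissue label. All 7 cartilage markers were measured and none was at 0 in any joint. Their summed normalized count was 13223 to 181774, with Col2a1 the most abundant by median. The most abundant marker of each list is that with the highest median over all joints, which need not be the highest in every joint. The 7 synovial fibroblast markers summed to 151819 to 1048402 (Prg4 most abundant by median) and the 7 bone markers to 11633 to 43250.3 (Ibsp most abundant by median). Markers of skeletal muscle (6 genes, 739477 to 3054869, Myh4 most abundant), erythroid cells (6 genes, 870756 to 1874072, Hbb-bs most abundant) and neutrophils (8 genes, 387204 to 944602, S100a9 most abundant) were also abundant. In such bulk tissue, fewer cells of a type and less RNA per cell cannot be told apart. The 6 epidermis markers (Krt10 most abundant, at 0 in no joint) summed to 22896 in TLR replicate 4, 7307 in CTRL replicate 1, 1569.8 in TLR replicate 3 and 1090.4 in MSC replicate 1, and to 19.2 to 424 in the other joints, with 5 of 6 at 0 in STING replicate 5.

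Levels of the genes were compared per kilobase of the longest annotated transcript. On this scale Enpp1 averaged 767 ± 812 normalized counts per kb over the 20 joints (SD, n = 20), and single joints weighed on its group means and on its place in the order. Its mean per kb was 1277 in CTRL and 826 in TLR joints, above that of every other member, but 695 in MSC joints, below Irf3 (731), and 270.5 in STING joints, below Irf3 (715), Tbk1 (518) and Sting1 (312). Enpp1 per kb lay below Irf3 in 2 of 5 CTRL, 4 of 5 MSC, 3 of 5 TLR and 5 of 5 STING joints. It lay below Sting1 in 3 of 5 MSC and 2 of 5 STING joints, and in no CTRL or TLR joint. Without TLR replicate 5 its TLR mean was 517, below Irf3 (676), and without MSC replicate 2 its MSC mean was 304, beside 739 for Irf3. Without MSC replicate 1, 3 or 4 its MSC mean was above that of Irf3, and its CTRL mean was above that of Irf3 whichever single joint was omitted. Over the 20 joints Irf3 was at 694 ± 54.8, Tbk1 at 503 ± 36.5 and Sting1 at 316 ± 47.7 normalized counts per kb. Mavs at 172 ± 19.3 and Ticam1 at 171 ± 20.4 did not differ beyond their spread, nor did Ifih1 at 136 ± 22.5 and Ikbke at 129 ± 20.9. The lowest levels per kb were those of Cgas at 61.5 ± 14 and Tlr3 at 40.1 ± 11.4.

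Whether the joints that received activated cells differ in these sensing genes is addressed by comparisons between all pairs of groups, with log2(normalized count + 1) of the 14793 genes fitted by limma. In MSC against CTRL joints, 1 of the 10 genes were higher and 0 lower by unadjusted p (threshold 0.05), beside 835 (5.64%) and 430 (2.91%) of all genes, and at an FDR of at most 0.05 there were 0 of the 10, beside 1 (0.00676%). For TLR against CTRL, 0 of the 10 genes were higher and 0 lower by unadjusted p (threshold 0.05), beside 396 (2.68%) and 134 (0.906%) of all genes, and at an FDR of at most 0.05 there were 0 of the 10, beside 0 (0%). In STING joints against CTRL, 2 of the 10 genes were higher and 1 lower by unadjusted p (threshold 0.05), beside 967 (6.54%) and 841 (5.69%) of all genes, and at an FDR of at most 0.05 there were 0 of the 10, beside 0 (0%). The comparisons with CTRL share the same control joints. In TLR against MSC joints, 0 of the 10 genes were higher and 0 lower by unadjusted p (threshold 0.05), beside 279 (1.89%) and 295 (1.99%) of all genes, and at an FDR of at most 0.05 there were 0 of the 10, beside 0 (0%). For STING against MSC, 0 of the 10 genes were higher and 0 lower by unadjusted p (threshold 0.05), beside 410 (2.77%) and 321 (2.17%) of all genes, and at an FDR of at most 0.05 there were 0 of the 10, beside 0 (0%). In STING joints against TLR, 0 of the 10 genes were higher and 0 lower by unadjusted p (threshold 0.05), beside 116 (0.784%) and 264 (1.78%) of all genes, and at an FDR of at most 0.05 there were 0 of the 10, beside 0 (0%). The F test over the 4 groups gave 0 of the 10 genes at an unadjusted p of at most 0.05, beside 950 (6.42%) of all genes. The count of 3 of 10 in STING against CTRL rests on few genes, and it was 0 without CTRL replicate 4 and 1 without STING replicate 1 or STING replicate 5. Without these joints in turn, the count of 1808 over all genes was 868, 1559 and 1023. In MSC against CTRL the count of 1 was 0 without MSC replicate 3, 2 without CTRL replicate 5 or MSC replicate 2, and 3 without MSC replicate 5. Over all genes the count of 1265 was 897 without MSC replicate 3 and 1131 without CTRL replicate 5. It was 2468 without MSC replicate 2 and 1926 without MSC replicate 5. No member reached an FDR of at most 0.05 with edgeR or DESeq2 on the recovered reads either. By unadjusted p with edgeR and DESeq2, 3 and 4 of the 10 genes passed in STING against CTRL, beside 13.3% and 15.2% of all genes tested, and 1 and 1 did in STING against TLR, beside 4.09% and 4.58%. Over all genes at an FDR of at most 0.05, edgeR gave 15 in MSC against CTRL, 1 in TLR against MSC and 0 in the other comparisons, and DESeq2 gave 105 in MSC against CTRL, 3 in TLR against CTRL, 85 in STING against CTRL, 7 in TLR against MSC, 29 in STING against MSC and 2 in STING against TLR. For the 10 genes by unadjusted p, edgeR and DESeq2 both gave 1 in MSC against CTRL, beside 8.85% and 9.71% of all genes. Both gave 0 in TLR against CTRL (beside 3.81% and 4.26%), TLR against MSC (beside 3.99% and 4.7%) and STING against MSC (beside 4.85% and 6.28%). The F test gave 0 with edgeR and 2 with DESeq2 (Enpp1 and Irf3), beside 7.35% and 9.75% of all genes. In STING against MSC the count was 1 without MSC replicate 1 or STING replicate 2, and this gene was Ifih1, whose unadjusted p over all joints was 0.076 (exact permutation p 0.0873). Without these joints in turn, the count of 731 over all genes was 792 and 674.

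**Figure D1:**
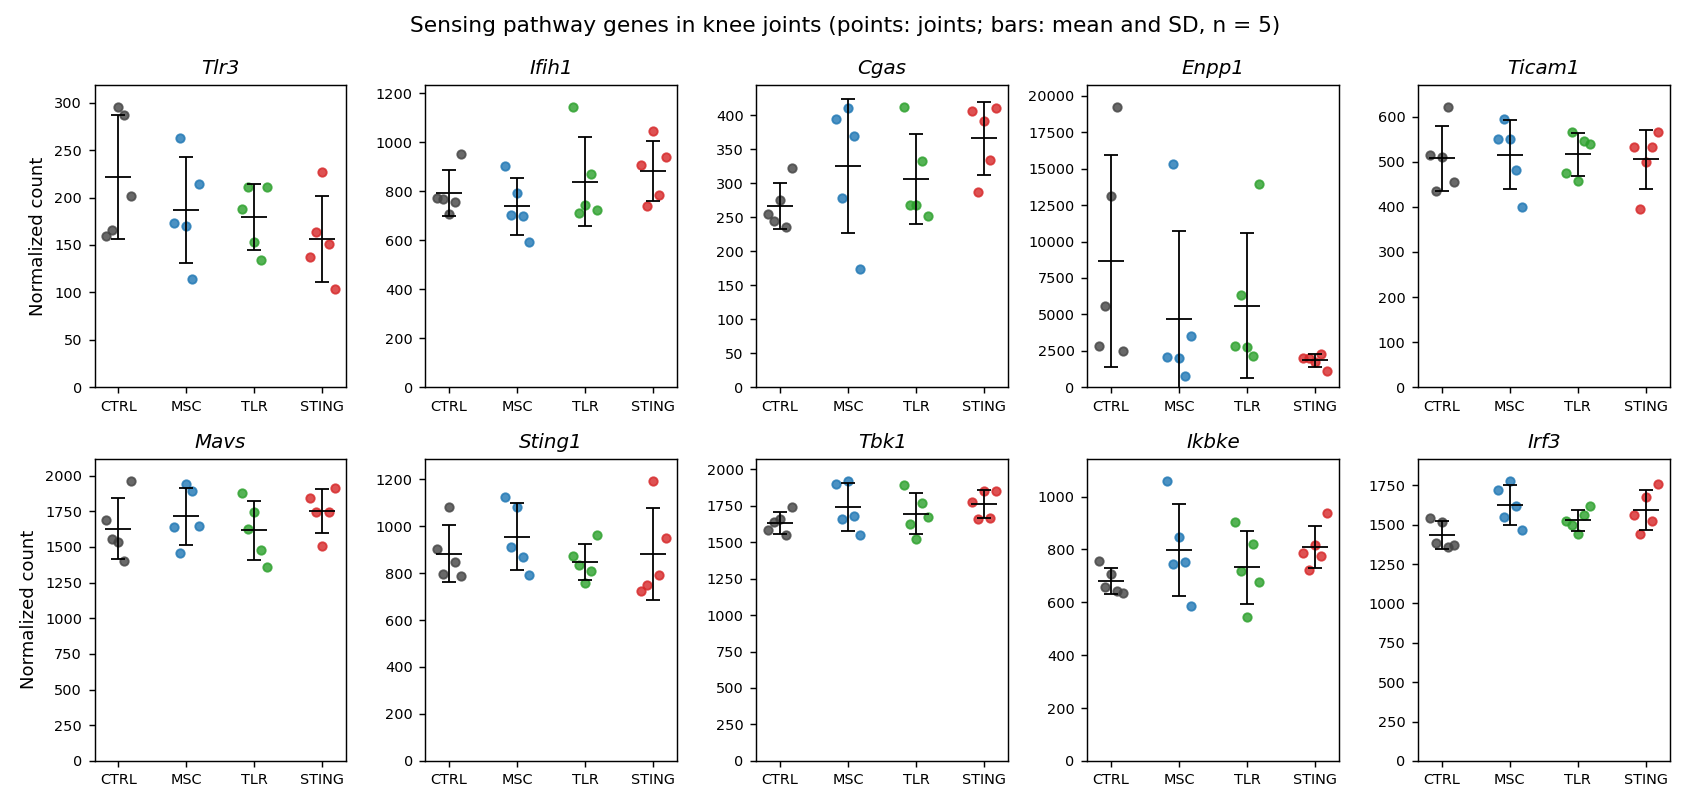
Normalized counts (vertical axis, linear from 0) of the 10 genes in CTRL, MSC, TLR and STING joints. Points are joints, and bars show the mean and SD (n = 5 per group). The 5 STING joints lie below all CTRL joints for Enpp1, and the groups overlap for the other genes. The lower bar of Enpp1 in MSC joints runs below the axis.

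Tlr3 (ENSMUSG00000031639, chr8:45848702-45864118, minus strand, GRCm39 as are all gene positions here) encodes the endosomal receptor for double-stranded RNA, the target of the agonist used for the TLR group. Its normalized count was 159.8, 166, 295, 287 and 202 in CTRL replicates 1 to 5 and 188, 211, 153, 135 and 211 in TLR replicates 1 to 5. It was 173, 263, 170.1, 114 and 215 in the MSC joints and 138, 164, 227, 151 and 104 in the STING joints. The group means descended from CTRL (222 ± 65.2, SD, n = 5) through MSC (187 ± 55.6) and TLR (179.6 ± 34.7) to STING (157 ± 45.4), but each group overlapped every other, and 3 of 5 STING joints lay below all CTRL joints. No pair of groups passed the test with limma for Tlr3, and its log2 fold changes ranged from -0.50 (STING against CTRL) to -0.03 (TLR against MSC). The 95% confidence interval of the TLR against CTRL difference was -0.78 to 0.23. In STING against CTRL the unadjusted p of Tlr3 was 0.0544 with limma over all joints (exact permutation p 0.103), 0.0482 with edgeR and 0.0452 with DESeq2, and with limma it was 0.0287 without CTRL replicate 1, 0.0334 without CTRL replicate 2 and 0.0168 without STING replicate 3. Exons of Tlr3 share 438 of 5348 bases with the lncRNA gene Gm45542 on the other strand.

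Ifih1 (ENSMUSG00000026896, chr2:62426142-62476600, minus strand) encodes the cytosolic RNA sensor MDA5. Its normalized count was 771, 767, 706, 756 and 952 in the CTRL joints and 903, 702, 792, 698 and 593 in the MSC joints. The TLR joints held 1142, 711, 744, 870.0 and 721 and the STING joints 905, 739, 1045, 782 and 938. The highest joint was TLR replicate 1, the groups overlapped in full or in part, and the means were 882 ± 123 (STING), 838 ± 182 (TLR), 790.4 ± 93.9 (CTRL) and 738 ± 116 (MSC, SD, n = 5). No pair passed the test, with log2 fold changes from -0.11 (MSC against CTRL) to 0.26 (STING against MSC), and neighbours in this order did not differ beyond their spread.

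Cgas (ENSMUSG00000032344, chr9:78337808-78350520, minus strand) encodes the DNA sensor that makes cGAMP. Its normalized count was 254, 244, 275, 236 and 322 in CTRL replicates 1 to 5 and 405, 287, 391, 334 and 411 in STING replicates 1 to 5. Of the STING joints, 4 of 5 lay above every CTRL joint, and STING replicate 2 lay below CTRL replicate 5. The means were 366 ± 53.3 and 266 ± 34.5 (SD, n = 5), a log2 fold change that was 0.45 ± 0.20 (SE, limma), with an unadjusted p of 0.0359, an FDR of 0.383 and an exact permutation p of 0.0159. This difference did not pass at the FDR threshold. Its unadjusted p was 0.06, 0.0675 and 0.0732 without CTRL replicates 1, 2 and 4 in turn, and 0.0736, 0.067 and 0.0754 without STING replicates 1, 3 and 5 in turn. The MSC joints held 393, 279, 409.9, 368 and 174 and the TLR joints 411, 268, 268, 332 and 252, so both groups overlapped the CTRL and the STING joints. In MSC against CTRL the log2 fold change of Cgas was 0.23 over all joints, which did not pass (unadjusted p 0.264, exact permutation p 0.381). MSC replicate 5 was the lowest of the 20 joints, and without it this log2 fold change was 0.44 with an unadjusted p of 0.0132. Exons of Cgas share 1785 of 5193 bases with the lncRNA gene Gm68924 on the other strand, and whether counting used strand is not given in the sources used here, so reads of the pair cannot be told apart.

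Ticam1 (ENSMUSG00000047123, chr17:56576319-56583787, minus strand), which encodes the TLR3 adaptor TRIF, had the smallest F value of the 10 genes over the groups (0.04, limma). Its normalized count ranged from 395 to 621 over the 20 joints, with group means of 508 ± 72 (CTRL), 516 ± 76.1 (MSC), 517 ± 47.9 (TLR) and 505 ± 66 (STING, SD, n = 5). All groups overlapped, and its log2 fold changes ranged from -0.04 to 0.03. Mavs (ENSMUSG00000037523, chr2:131075983-131089946, plus strand), the adaptor of MDA5, ranged from 1359 to 1962, and its means were 1751 ± 154 (STING), 1714 ± 199.8 (MSC), 1629 ± 212 (CTRL) and 1617 ± 208 (TLR, SD, n = 5). Its log2 fold changes ranged from -0.09 to 0.12 and none passed the test. Exons of Mavs share 606 of 11372 bases with the lncRNA gene Gm75131 on the other strand.

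Sting1 (ENSMUSG00000024349, chr18:35866732-35873608, minus strand) encodes the cGAMP receptor, the target of the agonist used for the STING group. Its normalized count was 903, 795, 1082, 847 and 787 in the CTRL joints and 725, 749.8, 1192, 791 and 951 in the STING joints. STING replicate 3 was the highest and STING replicate 1 the lowest of all 20 joints, so the STING group spanned the other 3 groups. The MSC joints held 1123, 913, 1081, 867 and 792 and the TLR joints 871, 834, 759, 807 and 962. Means descended from MSC (955 ± 142) through CTRL (883 ± 121) and STING (882 ± 194) to TLR (847 ± 76.4, SD, n = 5), with no neighbours that differed beyond their spread. The STING against CTRL log2 difference had a 95% confidence interval of -0.30 to 0.26.

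The kinase genes showed different spreads over the joints. Tbk1 (ENSMUSG00000020115, chr10:121382360-121422693, minus strand) ranged from 1523 to 1919, with means of 1761 ± 96.3 (STING), 1742 ± 162 (MSC), 1696 ± 141 (TLR) and 1633 ± 73.9 (CTRL, SD, n = 5). All groups overlapped and the log2 fold changes of Tbk1 ranged from -0.04 to 0.11. In STING against CTRL Tbk1 did not pass with limma (unadjusted p 0.152), and its exact permutation p was 0.0476. Its exons share 26 of 5667 bases with the lncRNA gene Gm68077 on the other strand. Ikbke (ENSMUSG00000042349, chr1:131182080-131207345, minus strand), which encodes the related kinase IKKε, had normalized counts of 755, 659.6, 708, 642 and 636 in the CTRL joints and 787, 724, 818, 775 and 938 in the STING joints. Of the STING joints, 4 of 5 lay above all CTRL joints, and STING replicate 2 lay below CTRL replicate 1. Ikbke did not pass with limma over all 20 joints in STING against CTRL (unadjusted p 0.0935, exact permutation p 0.0159), but had an unadjusted p of 0.0179 when only the STING and CTRL joints entered the fit. In MSC against CTRL the log2 fold change of Ikbke was 0.21 over all joints, which did not pass (unadjusted p 0.153, exact permutation p 0.214), and its unadjusted p was 0.0295 without MSC replicate 5. The MSC and TLR joints of Ikbke ranged from 586 to 1059 and from 546 to 904, and overlapped both of those groups. Exons of Ikbke share 175 and 159 of 10412 bases with the lncRNA genes Gm28913 and Gm28914 on the other strand.

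Irf3 (ENSMUSG00000003184, chr7:44647072-44652273, plus strand) encodes the transcription factor activated by these kinases. Its normalized count was 1542, 1387, 1517, 1361 and 1370.3 in the CTRL joints and 1724, 1552, 1778, 1619 and 1467 in the MSC joints. Of the MSC joints, 4 of 5 lay above all CTRL joints, and MSC replicate 5 lay within the CTRL range. The means were 1628 ± 126 and 1435 ± 86.9 (SD, n = 5), a log2 fold change that was 0.18 ± 0.07 (SE, limma), with an unadjusted p of 0.0176, an FDR of 0.438 and an exact permutation p of 0.0317. Without MSC replicate 3 the unadjusted p was 0.0549. The STING joints held 1564, 1438, 1678, 1522 and 1760.5, of which 3 of 5 lay above all CTRL joints. Their mean was 1593 ± 128, a log2 fold change that was 0.15 ± 0.07 (SE, limma), with an unadjusted p of 0.0456, an FDR of 0.4 and an exact permutation p of 0.0476 against CTRL. The unadjusted limma p was 0.0741 with only those groups in the fit and 0.0547 with edgeR, and without single joints it was 0.0875, 0.098 and 0.093 (CTRL replicates 2, 4 and 5) and 0.0574, 0.102 and 0.132 (STING replicates 1, 3 and 5). The TLR joints (1527, 1496, 1444, 1562 and 1617) overlapped all other groups. Exons of Irf3 share 123 bases with Bcl2l12 and 22 bases with Scaf1, both on the other strand.

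The neutrophil markers, which moved with Irf3 over the joints, summed to 692276, 564458, 477297, 387204 and 438738 in the CTRL joints and 906492, 577218, 800218, 944602 and 551721 in the MSC joints. Their sums were 658753, 516204, 538227, 800339.6 and 615236 in the TLR joints and 712441, 553273, 835826, 738187 and 860309 in the STING joints. In STING against CTRL 6 of the 8 neutrophil markers were higher by unadjusted p (threshold 0.05) and 0 lower, and 5 of 8 were higher in MSC against CTRL. None of the 8 was at 0 in any joint. Over the 20 joints Irf3 was negatively related to the Schwann cell score (6 markers, Pmp22 most abundant by median, none at 0). The relation had r = -0.679 (permutation p = 0.0011, adjusted p = 0.0069) and rho = -0.683 (permutation p = 0.0012, adjusted p = 0.0088). It had r = -0.649 after subtraction of the group means and r = -0.521 without the 2 joints farthest from the median. The Schwann cell sums were 6524, 5537, 5698, 7800.5 and 5905 in the CTRL joints and 5278, 6884, 6109.7, 6167 and 5467 in the STING joints, which overlapped. By the Schwann cell score, 4 of 5 STING joints lay below all CTRL joints (difference -0.392, exact permutation p 0.143). With limma, 2 of the 6 markers were lower in STING against CTRL by unadjusted p. The relation of Irf3 with the endothelium score, of which 4 of 6 markers were lower there, was r = -0.561 (permutation p = 0.01, adjusted p = 0.031) and rho = -0.538 (permutation p = 0.015, adjusted p = 0.046), with r = -0.542 after subtraction of the group means and r = -0.479 without the 2 joints farthest from the median. The part of these markers in the Irf3 differences was not tested.

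Enpp1 (ENSMUSG00000037370, chr10:24513812-24588058, minus strand) encodes an ectoenzyme that hydrolyses extracellular cGAMP and ATP and is known for its role in mineralization. It was the most variable of the 10 genes, with an SD of log2 values of 1.30 that exceeded those of 98.5% of all genes. Its normalized count was 2827, 5569, 13160.0, 19221 and 2493 in the CTRL joints and 2002, 2021, 1753, 2270.1 and 1119 in the STING joints. All 5 STING joints lay below all 5 CTRL joints, although the highest STING joint (replicate 4) was close to the lowest CTRL joint (replicate 5). How large a share of all genes had no overlap between these groups is not given here. The means were 1833 ± 439 and 8654 ± 7304 (SD, n = 5), a log2 fold change that was -1.82 ± 0.70 (SE, limma), with an unadjusted p of 0.0171, an FDR of 0.358 and an exact permutation p of 0.00794, which is the smallest p that 5 joints against 5 can give. Without CTRL replicate 4, the highest of all joints, the log2 fold change was -1.42 with an unadjusted p of 0.0587. The MSC joints held 2046, 15312, 1980.0, 742 and 3484 and the TLR joints 2843, 6313, 2725, 2136 and 13981. A single MSC joint (replicate 2) and a single TLR joint (replicate 5) were as high as the upper CTRL joints, and both groups overlapped CTRL. Of the STING joints, 4 of 5 lay below all TLR joints, and in STING against TLR the log2 fold change of Enpp1 was -1.27 with limma over all joints, which did not pass (unadjusted p 0.0847, exact permutation p 0.0159), while the unadjusted p was 0.0175 with only those groups in the fit, 0.0375 with edgeR and 0.0267 with DESeq2. In MSC against CTRL the log2 fold change of Enpp1 was -1.19 over all joints, which did not pass (unadjusted p 0.104, exact permutation p 0.214). Without MSC replicate 2 it was -1.81 with an unadjusted p of 0.00899, and without CTRL replicate 5 the p was 0.049.

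Synovial fibroblast markers moved with Enpp1. Their summed normalized count was 377463, 476087, 887379, 1048402 and 317596 in the CTRL joints and 346959, 340133, 335870.2, 334884 and 151819 in the STING joints. The sums were 283738, 821521, 414358, 153510.2 and 468076 in the MSC joints and 398621, 612454, 442080.4, 350159 and 705705 in the TLR joints. The joints highest in Enpp1 (CTRL replicates 3 and 4, MSC replicate 2 and TLR replicate 5) also had the highest sums, and the lowest (MSC replicate 4 and STING replicate 5) had the lowest. None of the 7 markers was at 0, and their part in the Enpp1 difference was not tested. By limma, 0 of the 7 passed an unadjusted p of at most 0.05 in STING against CTRL. Over the 20 joints, Enpp1 and the synovial fibroblast score (mean log2 over the 7 markers) had r = 0.821 (permutation p = 1e-05, adjusted p = 0.00075) and rho = 0.827 (permutation p = 3e-05, adjusted p = 0.002), with r = 0.829 after subtraction of the group means and r = 0.756 without the 2 joints farthest from the median. The 6 endothelium markers (Pecam1 most abundant, none at 0) also moved with Enpp1, with r = 0.763 (permutation p = 0.0001, adjusted p = 0.0021) and rho = 0.722 (permutation p = 0.00051, adjusted p = 0.0055), with r = 0.756 after subtraction of the group means and r = 0.612 without the 2 joints farthest from the median. Their sums were 7535, 9991, 10912, 13265 and 10535 in the CTRL joints and 7026, 9268, 6579, 6810.4 and 6793 in the STING joints, 4 of 6 were lower in STING against CTRL by unadjusted p with limma, and their part in the Enpp1 difference was not tested. The neutrophil score was negatively related to Enpp1, with r = -0.73 (permutation p = 0.00019, adjusted p = 0.0034) and rho = -0.741 (permutation p = 0.00033, adjusted p = 0.0041), with r = -0.634 after subtraction of the group means and r = -0.651 without the 2 joints farthest from the median, and the part of the neutrophil markers was not tested either. Enpp1 was also related to the Schwann cell score, with r = 0.637 (permutation p = 0.0026, adjusted p = 0.012) and rho = 0.668 (permutation p = 0.0017, adjusted p = 0.011), with r = 0.556 after subtraction of the group means and r = 0.482 without the 2 joints farthest from the median, and to the osteoclast score, with r = 0.644 (permutation p = 0.0022, adjusted p = 0.011) and rho = 0.537 (permutation p = 0.016, adjusted p = 0.048), with r = 0.549 after subtraction of the group means and r = 0.537 without the 2 joints farthest from the median. Of the other lists in STING against CTRL, 2 of 6 Schwann cell and 1 of 6 osteoclast markers were lower and 1 of 6 dendritic cell markers was higher, with 0 for cartilage, bone, macrophage, T and NK cell, B cell, skeletal muscle, adipocyte, erythroid and epidermis markers.

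**Figure D2:**
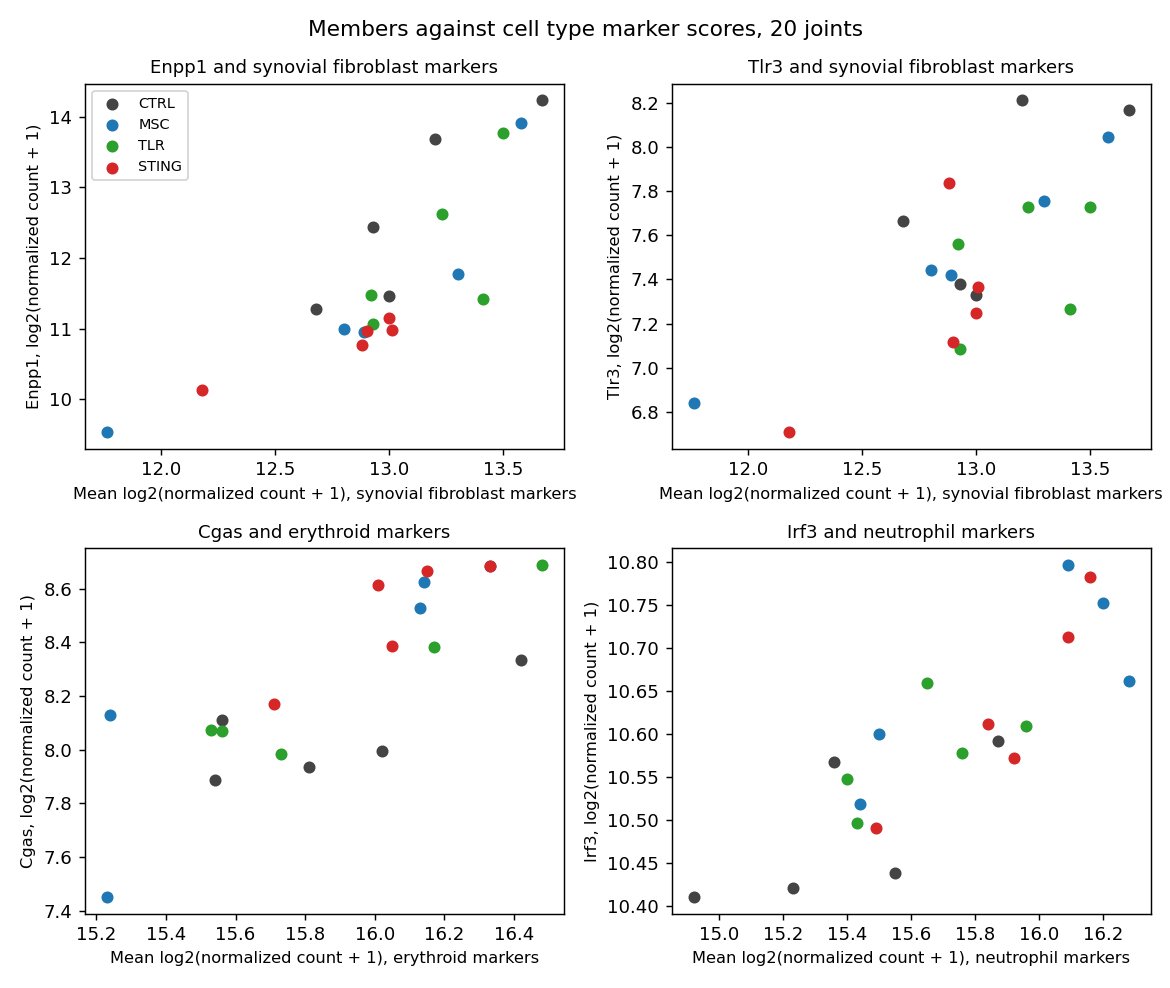
Members (vertical axes, log2(normalized count + 1)) against the mean log2(normalized count + 1) of marker genes (horizontal axes). Each point is 1 of 20 joints, coloured by group. Enpp1 and Tlr3 are high where synovial fibroblast markers are high, Cgas where erythroid markers are high, and Irf3 where neutrophil markers are high.

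Of the 150 relations between the 10 genes and the scores of 15 marker lists, 60 had an adjusted permutation p of at most 0.05 (35 positive and 25 negative), and 56 of these also did after subtraction of the group means. An absolute r of at least 0.51 was reached by 60 of the 150, beside 28.2% of the relations of all genes with these scores. Tlr3 and the synovial fibroblast score had r = 0.731 (permutation p = 0.00023, adjusted p = 0.0034) and rho = 0.525 (permutation p = 0.018, adjusted p = 0.049), with r = 0.76 after subtraction of the group means and r = 0.712 without the 2 joints farthest from the median. Cgas and the erythroid score had r = 0.81 (permutation p = 4e-05, adjusted p = 0.0015) and rho = 0.78 (permutation p = 8e-05, adjusted p = 0.002), with r = 0.855 after subtraction of the group means and r = 0.736 without the 2 joints farthest from the median. The erythroid sums were 1518088, 1240680.0, 1106390.0, 1164266 and 1874072 in the CTRL joints and 1519112, 1195001, 1470081, 1461114 and 1822083 in the STING joints, which overlapped, and by limma 0 of the 6 markers passed there by unadjusted p. Of the 5 lists with genes that passed in STING against CTRL, Cgas was related to the neutrophil, endothelium and Schwann cell scores, to the dendritic cell score by r and not by rho, and not detectably to the osteoclast score (r = -0.005, permutation p = 0.98). With the neutrophil score it had r = 0.698 (permutation p = 0.00074, adjusted p = 0.0069) and rho = 0.657 (permutation p = 0.0022, adjusted p = 0.013), with r = 0.637 after subtraction of the group means and r = 0.767 without the 2 joints farthest from the median. With the endothelium score it had r = -0.684 (permutation p = 0.0009, adjusted p = 0.0069) and rho = -0.698 (permutation p = 0.001, adjusted p = 0.0088), with r = -0.607 after subtraction of the group means and r = -0.675 without the 2 joints farthest from the median. The relation of Cgas with the Schwann cell score was r = -0.683 (permutation p = 0.00096, adjusted p = 0.0069) and rho = -0.725 (permutation p = 0.00042, adjusted p = 0.0048), with r = -0.625 after subtraction of the group means and r = -0.702 without the 2 joints farthest from the median. For Cgas with the dendritic cell score, which includes the interferon-stimulated gene Bst2 and had 1 of its 6 markers at 0 in MSC replicate 5, it was r = 0.676 (permutation p = 0.00097, adjusted p = 0.0069) and rho = 0.465 (permutation p = 0.04, adjusted p = 0.092), with r = 0.701 after subtraction of the group means and r = 0.476 without the 2 joints farthest from the median. The part of these markers in the Cgas difference was not tested. The neutrophil score was related to 6 of the 10 genes (positively to Cgas, Tbk1, Ikbke and Irf3, negatively to Tlr3 and Enpp1), and the endothelium score to 7 (positively to Tlr3 and Enpp1, negatively to Cgas, Tbk1, Ikbke, Irf3 and Ifih1). Irf3 and the neutrophil score had r = 0.843 (permutation p = 1e-05, adjusted p = 0.00075) and rho = 0.856 (permutation p = 1e-05, adjusted p = 0.0015), with r = 0.76 after subtraction of the group means and r = 0.829 without the 2 joints farthest from the median. Ikbke was low where skeletal muscle markers were high, with r = -0.775 (permutation p = 9e-05, adjusted p = 0.0021) and rho = -0.752 (permutation p = 0.00019, adjusted p = 0.0041), with r = -0.843 after subtraction of the group means and r = -0.702 without the 2 joints farthest from the median. For Ticam1, 1 of 15 scores passed, that of skeletal muscle (r = -0.557), and with r = -0.322 without the 2 joints farthest from the median it rested on those joints. The smallest p that 100000 permutations can give is 1e-05.

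Correlation was frequent among all genes over these joints. Of the 45 pairs of the 10 genes, 14 had an adjusted permutation p of at most 0.05, 11 of them positive and 3 negative, and 13 of the 14 also did after subtraction of the group means. All 14 had an absolute r of at least 0.59, which are 31.1% of the pairs, beside 18.6% of all pairs of genes in the table. Cgas, Tbk1, Ikbke, Irf3 and Ifih1 formed most of the positive pairs. Cgas and Tbk1 had r = 0.871 (permutation p = 1e-05, adjusted p = 0.00022) and rho = 0.884 (permutation p = 1e-05, adjusted p = 0.00045), with r = 0.857 after subtraction of the group means and r = 0.869 without the 2 joints farthest from the median. For the kinase pair of Tbk1 and Ikbke the relation was r = 0.847 (permutation p = 1e-05, adjusted p = 0.00022) and rho = 0.823 (permutation p = 3e-05, adjusted p = 0.00045), with r = 0.816 after subtraction of the group means and r = 0.825 without the 2 joints farthest from the median. The sensors Cgas and Ifih1 had r = 0.759 (permutation p = 9e-05, adjusted p = 0.00067) and rho = 0.665 (permutation p = 0.0019, adjusted p = 0.0093), with r = 0.819 after subtraction of the group means and r = 0.65 without the 2 joints farthest from the median. Tlr3 was positively related to Enpp1, with r = 0.817 (permutation p = 2e-05, adjusted p = 0.0003) and rho = 0.684 (permutation p = 0.0011, adjusted p = 0.0071), with r = 0.79 after subtraction of the group means and r = 0.726 without the 2 joints farthest from the median. The negative pairs were those of Enpp1 with Mavs and with Cgas, and of Tlr3 with Mavs. Enpp1 and Cgas (r = -0.606) were the pair that did not pass after subtraction of the group means (r = -0.479, adjusted permutation p = 0.086). Enpp1 and Mavs had r = -0.738 (permutation p = 0.00023, adjusted p = 0.0013) and rho = -0.633 (permutation p = 0.0034, adjusted p = 0.014), with r = -0.726 after subtraction of the group means and r = -0.608 without the 2 joints farthest from the median. All these relations are over joints of bulk tissue, whose marker scores vary as well.

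**Figure D3:**
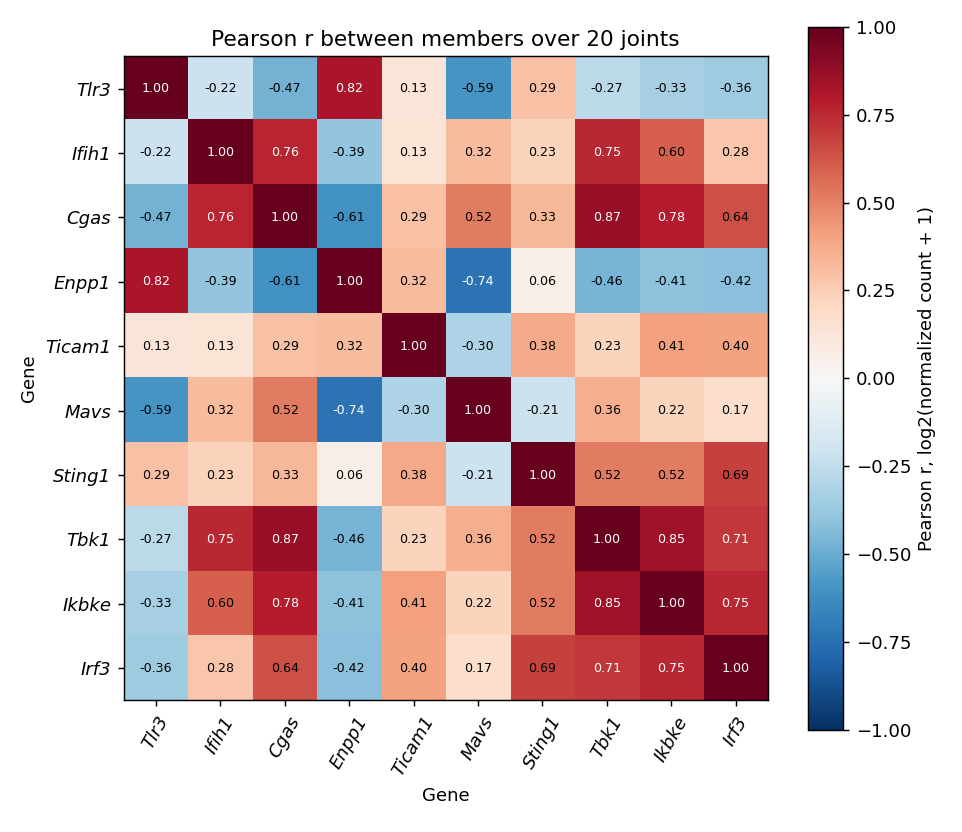
Pearson r of log2(normalized count + 1) between each pair of the 10 genes over 20 joints (both axes, genes). Colour gives r from -1 to 1, with the highest value 0.87 for Cgas and Tbk1 and the lowest -0.74 for Mavs and Enpp1.

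The genes of the whole table most like 4 of the members over the 20 joints were taken by Pearson r. For Enpp1 they were Timp1 (r = 0.993, 0.99 within groups, rho = 0.907), Bgn (r = 0.991, 0.988 within groups, rho = 0.95) and Col5a1 (r = 0.99, 0.988 within groups, rho = 0.922), all of which encode matrix proteins or an inhibitor of matrix proteases. Timp1 ranged from 321 to 11159 and Bgn from 11058 to 102448 normalized counts. For Tlr3 they were Slc9a4 (r = 0.937, 0.939 within groups, rho = 0.904), Gnb4 (r = 0.915, 0.908 within groups, rho = 0.893) and Rftn2 (r = 0.9, 0.888 within groups, rho = 0.829). Those of Cgas were Lrr1 (r = 0.923, 0.909 within groups, rho = 0.899), Baz1b (r = 0.912, 0.908 within groups, rho = 0.913) and Tmem86b (r = 0.911, 0.908 within groups, rho = 0.896). Those of Sting1 were Apobec1 (r = 0.862, 0.868 within groups, rho = 0.833), Tmem176b (r = 0.847, 0.835 within groups, rho = 0.848) and Nfkb2 (r = 0.846, 0.855 within groups, rho = 0.841), and Nfkb2 encodes a subunit of NF-κB.

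Other genes of these pathways were counted in 8 lists (TLR3 arm, RIG-I-like receptor arm, cGAS-STING arm and cGAMP handling, control of self nucleic acids, kinase scaffolds and partners, transcription factors, interferon genes and receptor, interferon-stimulated readout), of whose genes 102 were measured. Of these 102, 0 reached an FDR of at most 0.05 with limma or edgeR in any comparison, and with DESeq2 Peli1 did in MSC against CTRL and Jak1 in STING against CTRL. At an unadjusted p of at most 0.05 in MSC against CTRL, 8 were higher and 0 lower, with a median log2 fold change of 0.02 beside -0.04 over all genes, and these were 7.84% of the 102 genes beside 8.55% of all genes. The smallest p values were those of Peli1, a ubiquitin ligase of the TLR3 route (1616 ± 56.5 against 1328 ± 92.9, SD), Tbkbp1, an adaptor of TBK1 (1552 ± 132 against 1219 ± 113), Nfkbia, the inhibitor of NF-κB (2638 ± 381 against 2047 ± 161), Ikbkb (3030.0 ± 182 against 2624 ± 264) and Trim65 (517 ± 84.4 against 411 ± 42.4). By list, the 8 were 3 of 11 transcription factors, 2 of 10 kinase scaffolds and partners and 1 gene each of the TLR3, RIG-I-like receptor and cGAS-STING arms, with 0 in the other lists. For Peli1 all 5 MSC joints lay above all CTRL joints, a log2 fold change that was 0.29 ± 0.06 (SE, limma), with an unadjusted p of 0.000287, an FDR of 0.129 and an exact permutation p of 0.00794. In TLR against CTRL, 4 were higher and 1 lower, with a median log2 fold change of 0.04 beside -0.01 over all genes, and these were 4.9% of the 102 genes beside 3.58% of all genes. Crebbp, a coactivator of IRF3, had the smallest p there (2299 ± 132 against 1990.4 ± 100.1), with all 5 TLR joints above all CTRL joints. Ifi204 (1247 ± 112 against 967 ± 172), Peli1 (1462 ± 92.4 against 1328 ± 92.9) and Zdhhc7 (2129.9 ± 77.4 against 1973 ± 112) were also higher and Banf1, a DNA-binding competitor of cGAS, lower (3189 ± 131 against 3641 ± 337). Beside the full separation of joints for Peli1 (MSC against CTRL) and Crebbp (TLR against CTRL), the share of all genes is not given here.

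Among the 102 pathway genes in STING against CTRL, 10 were higher and 1 lower, with a median log2 fold change of 0.10 beside 0.01 over all genes, and these were 10.8% of the 102 genes beside 12.2% of all genes. They were led by Tbkbp1 (1540.2 ± 216 against 1219 ± 113, SD), the mitochondrial regulator Nlrx1 (1366 ± 261 against 1064 ± 124), the kinase gene Jak1 (10146 ± 399 against 9128 ± 230.0), Crebbp (2244 ± 158 against 1990.4 ± 100.1) and Ep300 (5686 ± 464 against 4889 ± 191). All 5 STING joints lay above all CTRL joints for Jak1 and Ep300, and the share of all genes with such separation is not given here. By list, the 11 were 3 of 10 kinase scaffolds and partners, 2 of 10 in the RIG-I-like receptor arm and 2 of 11 transcription factors. They also held 2 of the 6 measured genes of the interferon and receptor list (Jak1 among them) and 2 of 24 in the cGAS-STING arm. There were 0 of 13 in the TLR3 arm, 0 of 9 for control of self nucleic acids and 0 of 19 in the readout. With quantile normalization the count was 6 in place of 11, while that of all genes was 1771 in place of 1808. In TLR against MSC, 2 were higher and 6 lower, with a median log2 fold change of 0.03 beside 0.03 over all genes, and these were 7.84% of the 102 genes beside 3.88% of all genes. The smallest p values were those of Nfkbia (2024 ± 140.3 against 2638 ± 381), Lrrc8a, a subunit of a volume-regulated channel that can carry cGAMP (276 ± 44 against 356 ± 38.3), Pqbp1 (1165 ± 54.1 against 1363 ± 138), Ikbkb (2665 ± 138 against 3030.0 ± 182) and Peli1 (1462 ± 92.4 against 1616 ± 56.5), all lower in TLR joints. In STING against MSC, 4 were higher and 4 lower, with a median log2 fold change of 0.06 beside 0.02 over all genes, and these were 7.84% of the 102 genes beside 4.94% of all genes. Lrrc8a (258 ± 9.5 against 356 ± 38.3), Nfkbia (2089 ± 355 against 2638 ± 381) and Peli1 (1436 ± 89.1 against 1616 ± 56.5) were lower, and Jak1 (10146 ± 399 against 9292 ± 443) and Nlrx1 (1366 ± 261 against 1126 ± 152) higher. The count of 8 was 3 with quantile normalization and 5 with edgeR, while that of 731 over all genes was 640 and 717. The count of 5 in TLR against CTRL was 3 with quantile normalization, while that of 530 over all genes was 532. In STING against TLR, 0 of the 102 passed with limma at an unadjusted p of at most 0.05, 0 with edgeR and 1 with DESeq2. The shares over all genes were 2.57%, 4.09% and 4.58%.

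The 19 interferon-stimulated genes, whose transcription follows interferon signalling, gave 0 genes past an unadjusted p of at most 0.05 with limma in each comparison with CTRL and in STING against TLR, and 1 higher gene in each comparison with MSC (Ifit3 in TLR joints, Ifit1 in STING joints). Their median log2 fold change was -0.05 in MSC, 0.15 in TLR and 0.17 in STING joints against CTRL, beside medians of -0.04, -0.01 and 0.01 over all genes. It was 0.16 in TLR against MSC and 0.22 in STING against MSC, beside 0.03 and 0.02 over all genes, and 0.06 in STING against TLR, beside 0.02. Their summed normalized count was 17278, 18394, 13119, 15313 and 23237 in the CTRL joints and 20677, 15405, 23264, 17639 and 21267 in the STING joints, with Rsad2 the most abundant gene. The sums were 22119, 11558, 20918, 20873 and 11384 in the MSC joints and 29807, 13633, 17786, 20183 and 16256 in the TLR joints. All 4 groups overlapped, TLR replicate 1 was the highest joint and MSC replicate 5 the lowest.

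The core of the interferon-stimulated response element, GAAANNGAAA, was searched on both strands in RefSeq promoters (GRCm38.p6, 250 bases before to 50 after each gene start). Of the members, 9 had a promoter in the table, and 1 of 9 (Ifih1) held the core, beside 3.99% of the 27025 gene symbols with a promoter. Of the interferon-stimulated readout genes, 7 of 13 with a promoter held it. Stretches of 30 bases, 5′ to 3′ on the strand of the gene, are shown to set the Ifih1 match beside those of the readout genes, with the core in capitals (TTTCNNTTTC on the other strand). The positions are chr2:62646206-62646235 for Ifih1, chr19:34640785-34640814 for Ifit1, chr19:34583363-34583392 for Ifit3, chr4:156200871-156200900 for Isg15, chr12:26456553-26456582 for Rsad2, chr5:92349083-92349112 for Cxcl10, chr5:120777715-120777744 for Oas3 and chr8:71537580-71537609 for Bst2. Genes Ifih1, Isg15, Rsad2, Cxcl10, Oas3 and Bst2 lie on the minus strand, and Ifit1 and Ifit3 on the plus strand. The Ifih1 match lies 33 to 42 bases after the gene start, whereas all matches of the 7 readout genes lie before it, including a second Ifit3 match that lies outside the stretch shown. A match is a description of the sequence.
Ifih1: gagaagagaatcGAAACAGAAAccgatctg
Ifit1: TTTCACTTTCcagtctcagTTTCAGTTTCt
Ifit3: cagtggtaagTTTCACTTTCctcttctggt
Isg15: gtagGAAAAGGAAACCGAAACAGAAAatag
Rsad2: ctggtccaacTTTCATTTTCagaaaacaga
Cxcl10: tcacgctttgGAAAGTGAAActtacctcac
Oas3: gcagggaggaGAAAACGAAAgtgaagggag
Bst2: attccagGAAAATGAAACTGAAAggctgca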

How the data were processed

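PolyA RNA of 20 mouse knee joints was sequenced. The authors aligned reads with STAR (2.7.3a, GRCm39), counted them per gene with HTSeq and named DESeq2 (submitters' processing notes). The deposited values are these counts divided by a size factor per joint, a normalized signal. Divided by the value of 1 read, 99.84% to 99.92% of them were whole within 0.1, which gave the depth. Strand use in counting is not given in the sources used here. The main test was limma (3.58.1, trend, R 4.3.3) on log2(normalized count + 1) with all joints and genes, no filter on low values, and Benjamini-Hochberg FDR, because the values are normalized. On this scale changes of low genes are understated. Two-sided exact permutation tests over joints, and permutation tests of correlations (100000 resamples), were run in Python (3.11.15). The fits were tested on simulated data. The 10 genes, the pathway lists and the marker lists were chosen with earlier results of these data known. Levels and the range of log2 fold changes or single tests are given for all 10 genes, and a full set of statistics for those that passed 0.05 by unadjusted p. Which other statistics of the 10 genes are printed was decided after their values were seen. Statistics are also given for up to 5 pathway genes per comparison with the smallest such p, and for the 3 genes most correlated with Tlr3, Cgas, Sting1 and Enpp1. Ifit1, Ifit3, genes with a shown promoter and other single pathway genes outside this rule were named after their values were seen. The alternatives were pseudocounts of 0.5 and 5, minimum means of 20 and 100, quantile normalization, fits restricted to the 2 groups of a comparison, edgeR (4.0.16) and DESeq2 (1.42.0) on the recovered reads, a block for the replicate number, and omission of single joints. DESeq2 for the pathway lists was added after seeing the data.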

Additional observations from a re-analysis of the deposited data

Results flagged for a closer look

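Of 40 sets of 5 values (10 genes in 4 groups), 2 held a joint that stood apart, with a gap to its nearest neighbour above 0.71 of the range of the group. Chance alone gives such a joint in about 1 in 20 sets if the values are normally distributed, which was not tested. The gaps were taken on normalized counts and not on the log2 scale of the tests, so the flags may depend on the scale. Enpp1 in MSC replicate 2 had a normalized count of 15312, beside 3484 in the next joint of the group, a gap of 0.812 of the range. Ifih1 in CTRL replicate 5 had a normalized count of 952, beside 771 in the next, a gap of 0.738 of the range.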

How the results depend on the processing

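For the 10 genes, counts at an unadjusted p of at most 0.05 changed under some alternatives, and the cause was not tested. In STING against TLR the count of 0 was 1 with only those groups in the fit, 1 with edgeR and 1 with DESeq2 (Enpp1 each time). The F test count of 0 was 2 with DESeq2. When single joints were left out, the counts ranged from 0 to 3 in MSC against CTRL, 0 to 3 in STING against CTRL, 0 to 1 in STING against MSC and 0 to 2 for the F test. Of the pathway genes, with quantile normalization 3 passed in TLR against CTRL, 6 in STING against CTRL and 3 in STING against MSC, beside 5, 11 and 8. Over all genes these counts were 532, 1771 and 640, beside 530, 1808 and 731. With edgeR 5 of the pathway genes passed in STING against MSC, beside 8 (717 of all genes, beside 731). With DESeq2 1 of the pathway genes passed in STING against TLR, beside 0 (676 of all genes, beside 380).

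The log2 fold changes of Irf3, Cgas and Enpp1 that passed kept their direction under every alternative. Without single joints they ranged from 0.15 to 0.22 (Irf3, MSC against CTRL), 0.41 to 0.54 (Cgas), 0.11 to 0.18 (Irf3, STING against CTRL) and -2.16 to -1.42 (Enpp1). None of the 10 genes reached an FDR of at most 0.05 with limma, edgeR or DESeq2 under any alternative.

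Whether same-numbered joints were paired is not given in the sources used here, and the main test treated them as unpaired. The correlations of their deviations from the group means ranged from -0.658 to 0.464, which cannot settle it. With the replicate block, 1 of the 10 genes passed in MSC against CTRL, 2 in STING against CTRL and 0 in the other comparisons and the F test. Irf3 in STING against CTRL (0.15, unadjusted p 0.0558) was the call lost with the block.

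The counts of all genes by unadjusted p moved by over 1.5 times as follows. In MSC against CTRL 1265 became 2468 without MSC replicate 2 and 1926 without MSC replicate 5. In TLR against CTRL 530.0 became 810.0 without CTRL replicate 1 and 301 without TLR replicate 4. In STING against CTRL 1808 became 1105 without CTRL replicate 3, 868 without CTRL replicate 4 and 1023 without STING replicate 5. In TLR against MSC 574 became 343 with only those groups, 1477 without MSC replicate 2, 363 without MSC replicate 4 and 907 without MSC replicate 5. In STING against TLR 380.0 became 253 with a minimum mean of 100, 1258 with only those groups, 605 with edgeR, 676 with DESeq2, and 144 to 758 without single joints. At an FDR of at most 0.05 the limma count in MSC against CTRL was 1, 0 with only those groups and 1 to 46 without single joints, and without CTRL replicate 1 it was 4 in STING against CTRL and 1 in TLR against CTRL, beside 0 and 0. In TLR against MSC it was 1 without MSC replicate 1 or MSC replicate 2, beside 0. The counts with edgeR and DESeq2 are given with the group comparisons.

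Of 74 correlations with an adjusted permutation p of at most 0.05, 13 had a permutation p above 0.05 without the 2 joints farthest from the median, and none reversed.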
